A study of Canis lupus familiaris with 8 samples.

Results

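The genes described here make, import, store and export cholesterol. They were chosen by symbol from a list of 33 genes, and 29 of the 33 were found among 24580 gene rows of the deposited tables. The 29 comprise 15 enzymes of synthesis and 5 genes called SREBP regulators here. These 5 are SREBF1 and SREBF2, which encode the SREBP transcription factors, with SCAP, INSIG1 and INSIG2. The rest are 4 genes of uptake and transport inside the cell, 1 enzyme of ester storage, and 4 genes of efflux and its LXR receptors. HMGCS1, MSMO1, EBP and LIPE were not matched by symbol and are not analysed here. Messenger RNA was sequenced from adrenal cortex and pituitary of adult dogs of 2 breeds, Beagle and Chinese Field Dog. In each breed and tissue, 1 library came from the arm labelled as exposed to chronic stress, called stressed here. The other came from an arm labelled non-disposal, read here as the unexposed control. The 8 groups therefore held 1 library each, the kind of stress is not given in the labels used here, and the labels leave unsaid if each library is a single dog or a pool.

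Cholesterol is built from acetyl-CoA by way of mevalonate, isoprenoid chains, squalene and lanosterol. When membrane sterol runs low, SCAP carries the SREBP factors out of the endoplasmic reticulum, they are cut, and the released part switches on the synthesis genes and INSIG1. INSIG1 and INSIG2 hold SCAP back when sterol is plentiful, and oxysterols then act on the LXR receptors, which raise the efflux pumps. In the adrenal cortex cholesterol is also the raw material of cortisol and aldosterone, taken up from lipoproteins and kept as ester droplets, whereas the pituitary makes peptide hormones.

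The libraries held between 14327356 and 18712028 recovered reads, and the 29 genes had reads in all 8. FPKM, the unit used below, divides reads by gene length and library depth, so levels can be compared between genes. The tissue labels fitted the defining markers: 6 of 8 listed adrenocortical genes were found and summed to between 11921 and 15763 FPKM in adrenal cortex and to between 10.9 and 32.9 in pituitary, and 10 anterior pituitary genes to between 82161 and 165702 FPKM in pituitary and to between 31.3 and 53.8 in adrenal cortex. The libraries labelled adrenal cortex also held 7 adrenal medulla genes at a sum of 3186 to 5573 FPKM, against 1321 to 1673 in pituitary. Gene by gene the gap was wider than these sums show. In each of the 4 tissue pairs 6 of the 7 were at least 2-fold higher in adrenal cortex, with median log2 ratios of 3.89 to 4.11. Over all genes this was 1731 of 14544 to 2249 of 14695. Only 4 of the 7 averaged 1 FPKM in pituitary, so the direction of the rest was largely fixed by the filter of a mean of 1 FPKM. The part of medulla in the tissue differences below was not tested. The stressed Chinese Field Dog pituitary stood apart from the other 3 pituitaries. There, 7 forebrain neuron genes summed to 641 FPKM against 2.4 to 4.6 (NEUROD6 and TBR1 listed at 0 in those 3), 8 oligodendrocyte genes to 447 against 54.0 to 146, and 5 astrocyte genes to 357 against 43.2 to 54.5. Growth hormone, GH1, was listed at 0 in the unexposed Beagle pituitary and at 73846 to 81835 FPKM in the other 3. The anterior pituitary sum of 82161 FPKM is from that unexposed Beagle library. Whether its GH1 value of 0 comes from the tissue or from the quantification was not tested. For the marker sums, fewer cells of a type and less RNA per cell cannot be told apart in bulk tissue.

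SCARB1, SOAT1, NR1H3, SCAP, NPC1 and ABCA1, genes of uptake, ester storage, LXR signalling, SREBP escort, lysosomal release and efflux, were 2.90-fold to 43.4-fold higher in adrenal cortex than in pituitary. Most synthesis enzymes lay at overlapping levels, and HSD17B7, DHCR7 and NPC2 were lower in adrenal cortex. All 29 genes passed the filter on low values. Across the 4 adrenal to pituitary ratios, each within a breed and exposure, limma with Benjamini-Hochberg adjustment over 14808 genes called 13 of the 29 genes at an adjusted p under 0.05. This is 10 higher and 3 lower in adrenal cortex, where the background over all genes tested was 58.7% called, with 30.2% higher and 28.4% lower. The share of the list that was called was thus below that of all genes, and the median log2 difference of the list was 0.29 against 0.00 for all genes. In 11 of the 29 genes all 4 adrenal libraries lay above all 4 pituitary libraries (29.5% of all genes), and in 4 they lay below (28.5%). The breeds and exposures stand in as replicates here, so the errors cover differences between them as well.

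**Figure D1:**
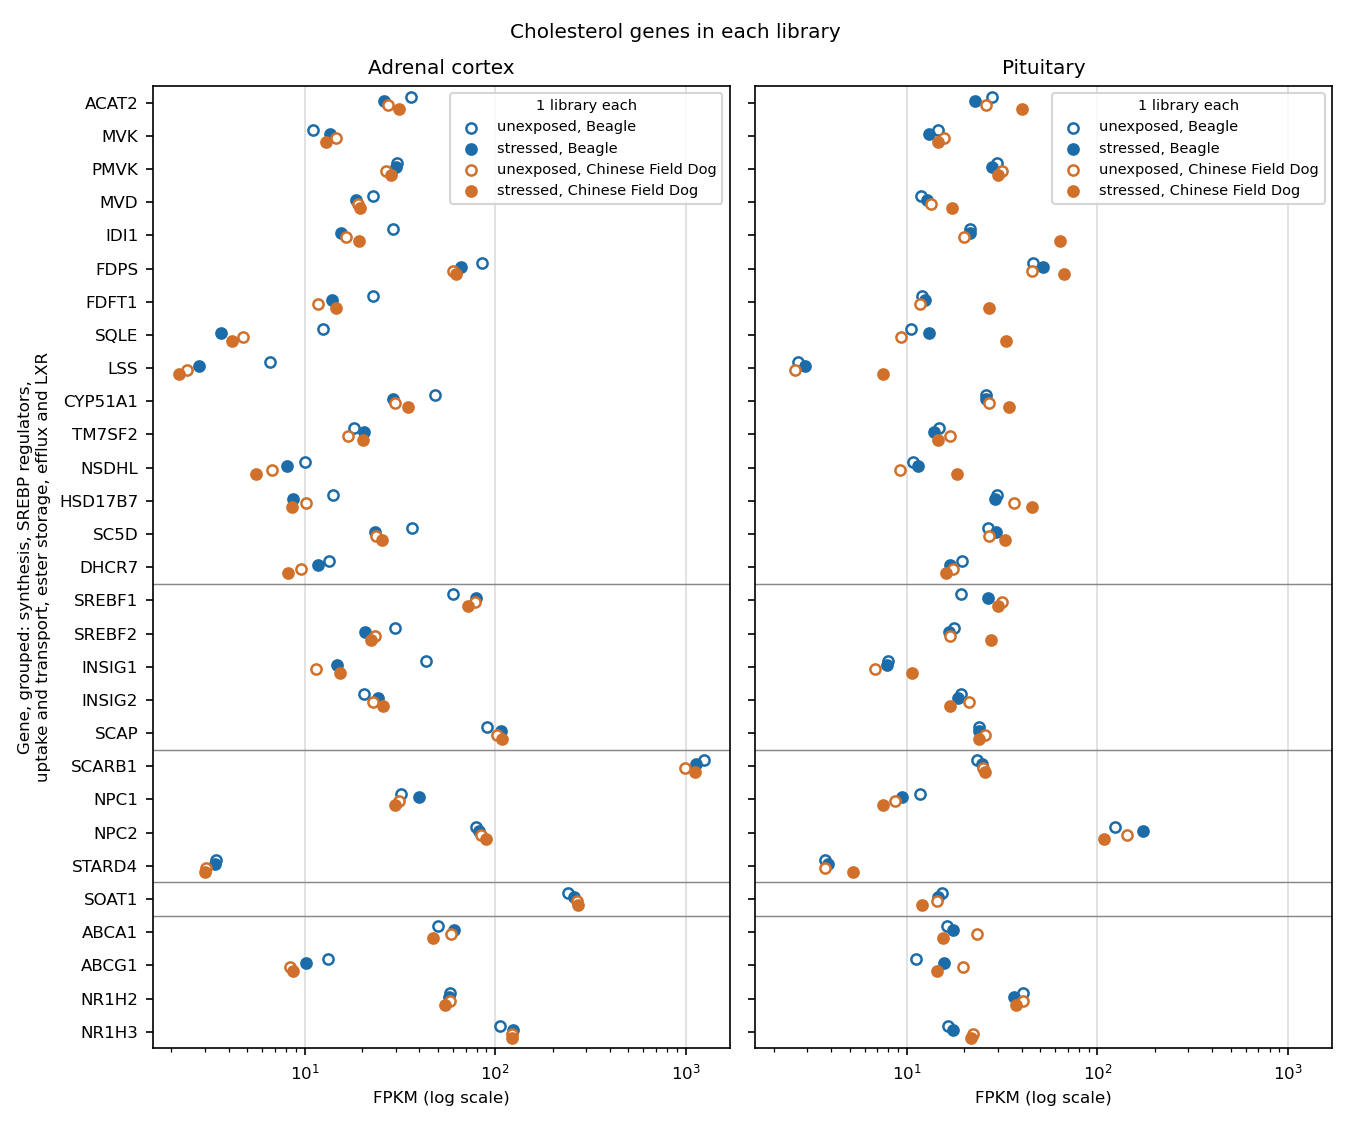
FPKM (log axis) of the 29 cholesterol genes in each of the 8 libraries, adrenal cortex on the left and pituitary on the right, with 1 point per library and horizontal lines between the sub-groups. SCARB1 reached 1239.5 FPKM in adrenal cortex and at most 25.6 in pituitary, and many synthesis genes lay farthest right in the unexposed Beagle of the adrenal libraries and in the stressed Chinese Field Dog of the pituitary libraries.

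SCARB1, the receptor that takes cholesteryl ester from high-density lipoprotein, was the most abundant gene of the list. In adrenal cortex it read 1239.5 FPKM in the unexposed and 1134 in the stressed Beagle, and 986 and 1118 in the unexposed and stressed Chinese Field Dog. In pituitary the same order gave 23.4, 24.9, 25.2 and 25.6 FPKM. The lowest adrenal library lay far above the highest pituitary one, and the libraries within each tissue lay close together. The fitted difference was 5.44 log2 units (SE 0.10, n = 4 ratios, limma adjusted p = 7.23e-05), or 43.4-fold. The gene lies on chromosome 26 at 5087759 to 5122988 in the CanFam3.1 build that the deposited loci use.

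SOAT1, the acyltransferase of the endoplasmic reticulum that turns free cholesterol into storable ester, showed the next largest difference. It read 242 and 260.0 FPKM in the unexposed and stressed Beagle adrenal cortex, and 269.5 and 271 in the Chinese Field Dog. The pituitary values were 15.2, 14.5, 14.3 and 12.1 in the same order. All 4 adrenal libraries thus lay above all 4 pituitaries, by 17.4-fold in the fit (log2 4.12, SE 0.11, limma adjusted p = 8.52e-05). SOAT1 lies on chromosome 7 at 20486290 to 20546039. It was the only ester storage gene of the list that was found.

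The proteins that release cholesterol from lysosomes went opposite ways. NPC1, the membrane protein of that step, read 31.9, 39.8, 31.3 and 29.9 FPKM in adrenal cortex (unexposed and stressed Beagle, then unexposed and stressed Chinese Field Dog) and 11.7, 9.45, 8.63 and 7.52 in pituitary. NPC2, its soluble partner in the lysosome lumen, read 79.7, 82.3, 84.1 and 89.0 FPKM in adrenal cortex and 123, 174, 142 and 108 in pituitary. Neither gene's tissue ranges overlapped, with NPC1 above and NPC2 below in adrenal cortex. The fitted log2 difference was 1.74 for NPC1 (SE 0.12, limma adjusted p = 5.18e-04) and -0.68 for NPC2 (SE 0.15, adjusted p = 0.0142). The call on NPC2 was lost without the unexposed Chinese Field Dog ratio (limma adjusted p = 0.0652). The deposited locus of NPC1 is shared by 3 gene rows. STARD4, a cytosolic sterol carrier, was the least abundant of the uptake genes, at 3.43, 3.40, 3.05 and 2.997 FPKM in adrenal cortex and 3.73, 3.87, 3.70 and 5.24 in pituitary. All its adrenal values lay below its pituitary ones, but the difference of -0.27 did not pass (SE 0.12, limma adjusted p = 0.113).

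Of the 5 SREBP regulators, 3 were called higher in adrenal cortex and 0 lower. The background over all genes was 58.7% called, with 30.2% higher, so the share called was near it. SCAP, the escort of the SREBP factors, read 90.6, 107, 102 and 108 FPKM in the adrenal libraries in the order above, and 23.8, 24.03, 25.8 and 23.9 in the pituitaries. SREBF1, which encodes the factor that mainly drives fatty acid synthesis, read 60.3, 79.1, 78.5 and 71.7 FPKM in adrenal cortex and 19.2, 26.8, 31.6 and 30.2 in pituitary. The adrenal range lay above the pituitary range for both. SCAP differed by 4.04-fold (log2 2.02, SE 0.09, limma adjusted p = 1.73e-04) and SREBF1 by 2.66-fold (log2 1.41, SE 0.10, adjusted p = 5.42e-04). SREBF2, whose product mainly drives cholesterol synthesis, did not pass (log2 0.30, SE 0.18, adjusted p = 0.219), and neither did INSIG2 (log2 0.29, SE 0.12, adjusted p = 0.0908).

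INSIG1, the sterol-sensing retention protein that is itself an SREBP target, read 43.4 FPKM unexposed and 14.8 FPKM stressed in the Beagle adrenal cortex. The Chinese Field Dog adrenals read 11.5 unexposed and 15.3 stressed. Pituitary values were 7.97, 7.89, 6.77 and 10.7 in the same order. All adrenal values exceeded all pituitary values, and 1 adrenal library stood well above the other 3. The tissue difference was 1.07 log2 units (SE 0.34, limma adjusted p = 0.0445), near the threshold. Without the unexposed Beagle ratio the difference was 0.66 (limma adjusted p = 0.0179). Leaving out any other ratio ended the call, with limma adjusted p between 0.0520 and 0.108.

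Among the efflux genes, the receptors and ABCA1 were higher in adrenal cortex and ABCG1 was not. NR1H3, the LXR alpha receptor, read 106, 125, 123 and 123 FPKM in the adrenal libraries and 16.4, 17.5, 22.1 and 21.8 in the pituitaries. NR1H2, the LXR beta receptor, read 58.2, 57.0, 57.8 and 54.8 FPKM against 40.7, 36.4, 40.7 and 37.6. ABCA1, the pump that loads apolipoprotein A-I, read 49.8, 60.7, 58.6 and 47.0 FPKM against 16.2, 17.5, 23.4 and 15.4. The tissue ranges of these 3 genes did not overlap. NR1H3 was 5.90-fold higher (log2 2.56, SE 0.10, limma adjusted p = 1.34e-04), ABCA1 2.90-fold (log2 1.53, SE 0.10, adjusted p = 4.42e-04) and NR1H2 1.46-fold (log2 0.54, SE 0.08, adjusted p = 0.00353). ABCG1, the pump that loads mature high-density lipoprotein, read 13.3, 10.2, 8.37 and 8.69 FPKM in adrenal cortex and 11.1, 15.7, 19.6 and 14.4 in pituitary. Its ranges overlapped and its difference of -0.53 did not pass (SE 0.24, adjusted p = 0.110).

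The 15 synthesis enzymes summed to similar amounts in both tissues, between 280 and 397 FPKM in adrenal cortex and between 304 and 461 in pituitary. Of the 15, 1 was called higher and 2 lower in adrenal cortex, below the background of 30.2% higher and 28.4% lower. The median log2 difference was -0.10. FDPS, which makes farnesyl diphosphate, was the most abundant enzyme in both tissues, at 85.1, 66.2, 60.2 and 62.2 FPKM in adrenal cortex and 45.6, 52.0, 45.4 and 66.9 in pituitary. LSS, the cyclase that forms lanosterol, was the least abundant, at 6.60, 2.81, 2.40 and 2.19 FPKM and 2.69, 2.92, 2.57 and 7.46. For both enzymes the tissue ranges overlapped. Over all 8 libraries ACAT2, the thiolase of the first step (not the sterol acyltransferase once given that name), ranged from 22.6 to 40.1 FPKM. PMVK, the phosphomevalonate kinase, ranged from 26.6 to 31.5 FPKM, and MVK from 11.0 to 15.6, the narrower ranges of these early steps. The deposited locus of ACAT2 is shared by 4 gene rows.

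The enzymes called between tissues act at different ends of the pathway. HSD17B7, the sterol ketoreductase of the demethylation steps, read 14.0, 8.69, 10.2 and 8.54 FPKM in adrenal cortex and 29.6, 29.0, 36.6 and 45.4 in pituitary. DHCR7, the reductase of the final steps, read 13.4, 11.7, 9.61 and 8.15 FPKM against 19.4, 16.9, 17.4 and 15.98. MVD, the decarboxylase of the mevalonate arm, read 22.9, 18.5, 18.9 and 19.5 FPKM against 11.8, 12.7, 13.4 and 17.2. HSD17B7 and DHCR7 were lower in every adrenal library than in any pituitary, and MVD was higher. HSD17B7 was 3.18-fold lower (log2 -1.67, SE 0.21, limma adjusted p = 0.00272) and DHCR7 1.59-fold lower (log2 -0.67, SE 0.11, adjusted p = 0.00531). MVD was 1.43-fold higher (log2 0.51, SE 0.14, adjusted p = 0.0276), a call lost on leaving out 1 ratio in 3 of 4 cases (limma adjusted p 0.0650 to 0.0942). The deposited locus of MVD is shared by 13 gene rows, that of LSS by 7, and those of DHCR7, CYP51A1, SREBF1 and SREBF2 by 2 each. Reads in overlapping stretches of these loci may have been split between genes. SQLE, the squalene epoxidase, had a log2 difference of -1.24 that did not pass (SE 0.50, adjusted p = 0.0864). TM7SF2, a sterol reductase, lay higher in all 4 adrenal libraries, and its difference of 0.32 did not pass either (SE 0.12, adjusted p = 0.0676).

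A wider list of 40 pathway genes outside the 33, of which 37 could be tested, had 21 called higher and 6 lower in adrenal cortex, where the background was 58.7% called, 30.2% higher and 28.4% lower. VLDLR, a receptor for very-low-density lipoprotein, was among those lower, at 5.11, 4.08, 3.44 and 3.21 FPKM in adrenal cortex against 23.1, 23.5, 22.2 and 15.2 in pituitary (log2 -2.14, SE 0.11, limma adjusted p = 2.51e-04). The lysosomal lipase LIPA differed by 2.31 log2 units (SE 0.18, adjusted p = 6.62e-04) and the outer mitochondrial membrane protein TSPO by 2.44 (SE 0.14, adjusted p = 3.50e-04). STAR, which moves cholesterol into the mitochondrion, and CYP11A1, which cleaves its side chain, differed by 9.06 and 9.33 (adjusted p = 1.34e-04 and 1.03e-04), and both belong to the adrenocortical markers used to check the tissue.

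Whether chronic stress moved these genes could be tested only with the breeds as replicates, in 4 stressed to unexposed ratios with 2 residual degrees of freedom. None of the 29 genes passed at an adjusted p under 0.05 with limma, edgeR or DESeq2, in either tissue or in the difference between tissues. The limma background was 0.00675% of all genes in adrenal cortex, 0.00675% in pituitary and 0.0135% for the difference between tissues, so the design called almost nothing. At an unadjusted p under 0.05, limma gave 0 of the 29 in each of the 3 tests, where the background over all 14808 genes was 2.98%, 4.47% and 3.55%. edgeR gave 0, 0 and 1 (background 3.54%, 5.29% and 4.76%), and DESeq2 0, 1 and 2 (background 2.57%, 4.22% and 3.96%). The widest gap was that of SQLE, with a stress effect of -0.85 log2 units in adrenal cortex and 1.004 in pituitary (SE 0.51 each). The difference of -1.85 had an SE of 0.72 (limma adjusted p = 0.933). The 4 ratios behind these values are given singly below, each from 1 library against 1 library and so without a replicate check.

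**Figure D2:**
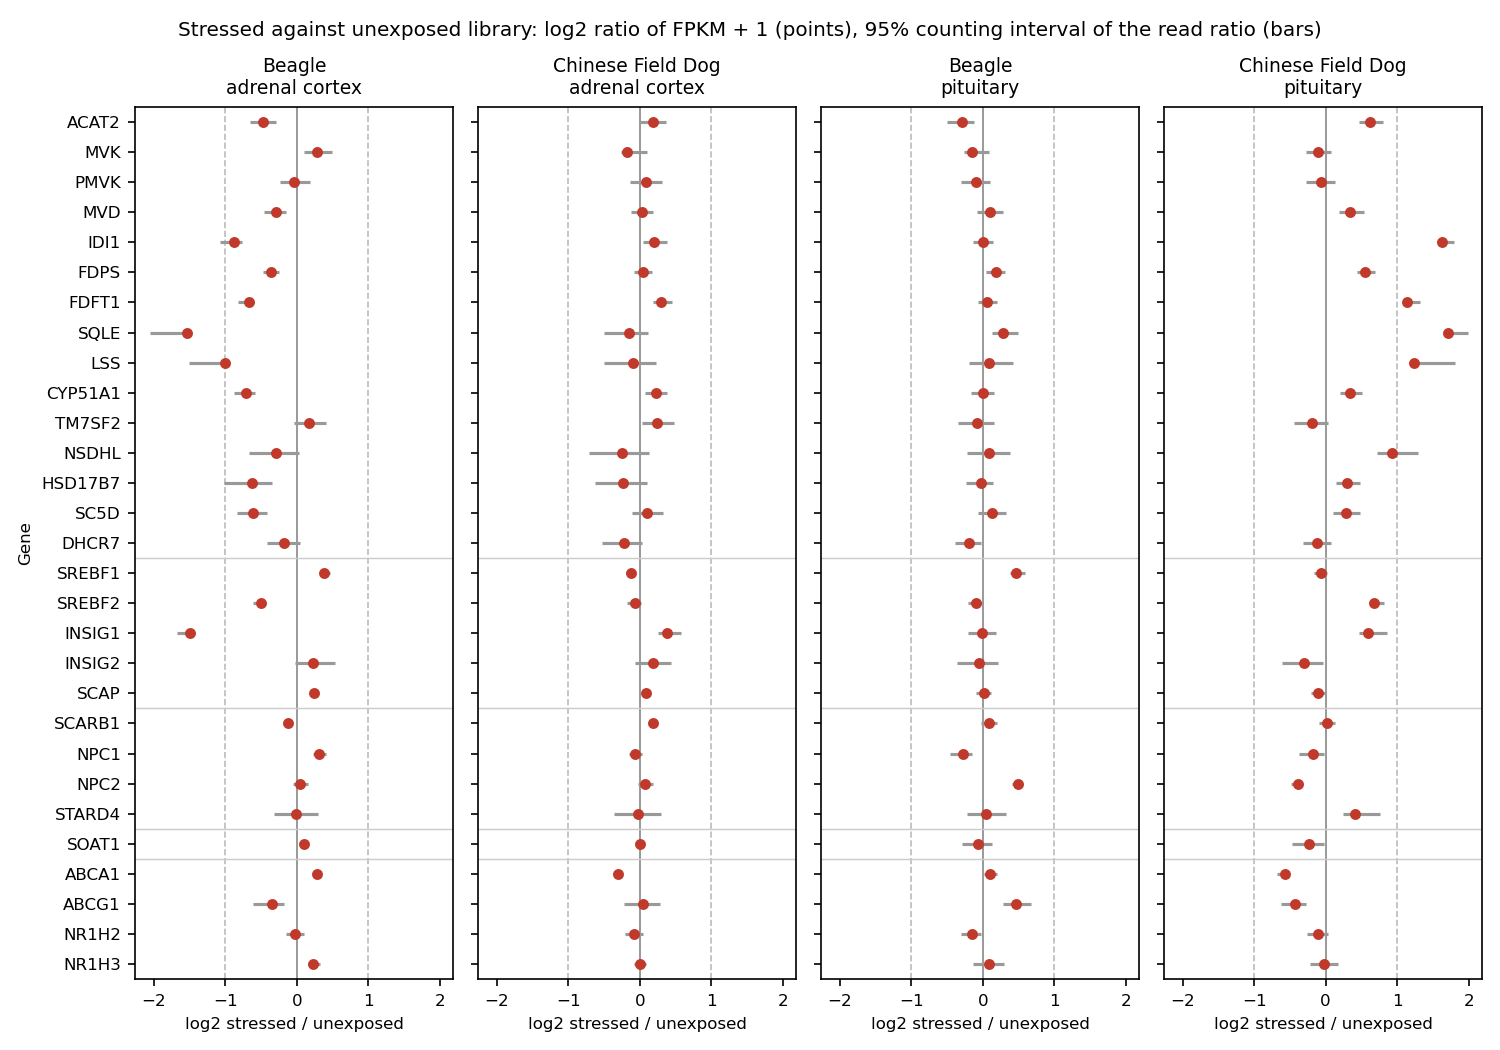
Log2 ratio of FPKM + 1, stressed over unexposed, for each of the 29 genes (points) in the 4 breed and tissue pairs, with the 95% Clopper-Pearson interval of the read ratio (bars, counting error only) and dashed lines at 2-fold. Points spread left of 0 for synthesis genes in the Beagle adrenal cortex and right of 0 in the Chinese Field Dog pituitary, and stay within 2-fold in the other 2 pairs.

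In the Beagle adrenal cortex 13 of 15 synthesis enzymes were lower in the stressed than in the unexposed library (median log2 ratio -0.47). Among all genes 6823 of 13730 were lower (median 0.00). SQLE read 3.63 FPKM stressed and 12.4 unexposed, from 146 and 450 reads, a log2 ratio of -1.54 (95% interval of the read ratio -2.06 to -1.50). INSIG1 read 14.8 against 43.4 FPKM, a log2 ratio of -1.49 (interval -1.68 to -1.43). SQLE lies on chromosome 13 at 22993698 to 23018123 and INSIG1 on chromosome 16 at 18260389 to 18272232 (CanFam3.1). These were the 2 of 29 genes past 2-fold, where the background was 3.28% of genes in both directions. LSS lay just inside the limit at -0.997, and passed it with a pseudocount of 0.1. IDI1, the isomerase of the isoprenoid units, had a ratio of -0.88, and FDFT1, the squalene synthase, -0.67. The enzymes that read higher were MVK, the mevalonate kinase, at 0.28, and TM7SF2. Outside synthesis the ratios were mixed, with the uptake genes at a median of 0.02 and the efflux and LXR genes at 0.10. SREBF2 read 20.6 against 29.7 FPKM, while SREBF1 read 79.1 against 60.3.

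The Chinese Field Dog adrenal pair was nearly level, though with 1 library per group the difference between the breeds was not tested. There, 9 of 15 synthesis enzymes were higher and 6 lower in the stressed library, with a median log2 ratio of 0.05, and 0 of 29 genes passed 2-fold (background 2.02%). SQLE read 4.14 FPKM stressed and 4.72 unexposed, and INSIG1 15.3 and 11.5. The stressed Beagle library lay within or near the values of both Field Dog libraries for these genes, and the unexposed Beagle library lay above all 3.

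That library, the unexposed Beagle adrenal cortex, was the highest of 4 for 13 of the 15 synthesis enzymes and for 19 of the 29 genes, where the background was 28.3% of genes. It exceeded the next library by 1.5-fold for 5 of the 29 (background 4.32%): INSIG1 by 2.84-fold, SQLE by 2.64-fold, LSS by 2.35-fold, FDFT1 by 1.57-fold and IDI1 by 1.52-fold. CYP51A1, the lanosterol demethylase, read 48.2 FPKM there and 28.9, 29.9 and 35.1 in the stressed Beagle and the unexposed and stressed Chinese Field Dog. SC5D, the sterol desaturase, read 36.4 FPKM there and 23.5, 23.7 and 25.6 in those libraries. For both enzymes the other 3 libraries lay close together.

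The same library was the lowest of 4 for 7 of the 29 genes, a share near the background of 25.1%, among them SOAT1, SCAP, SREBF1, INSIG2 and NR1H3. NR1H3 read 106 FPKM against 123 to 125 in the other 3. SCARB1 was highest of 4 there, by 1.09-fold. Marker sums of other cell types differed in this library too, in both directions. There, 8 adipocyte genes (of 11 listed, none at 0 in adrenal cortex) summed to 139 FPKM against 33.4 to 103 in the other adrenals. The 7 medulla genes summed to 5573 against 3186 to 4703, and 8 oligodendrocyte genes to 61.0 against 39.8 to 44.6. The 7 forebrain neuron genes summed to 9.40 against 3.48 to 6.32. Lowest of the adrenals there were 5 astrocyte genes (110 against 231 to 289) and 10 anterior pituitary genes (31.3 against 38.3 to 53.8). So were 7 macrophage genes (100.2 against 100.4 to 200). The adipocyte sum was 103 FPKM in the stressed Chinese Field Dog adrenal cortex, where the synthesis sum was 297, against 33.4 and 292 in the stressed Beagle. The part of these cells in the synthesis values was not tested.

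**Figure D3:**
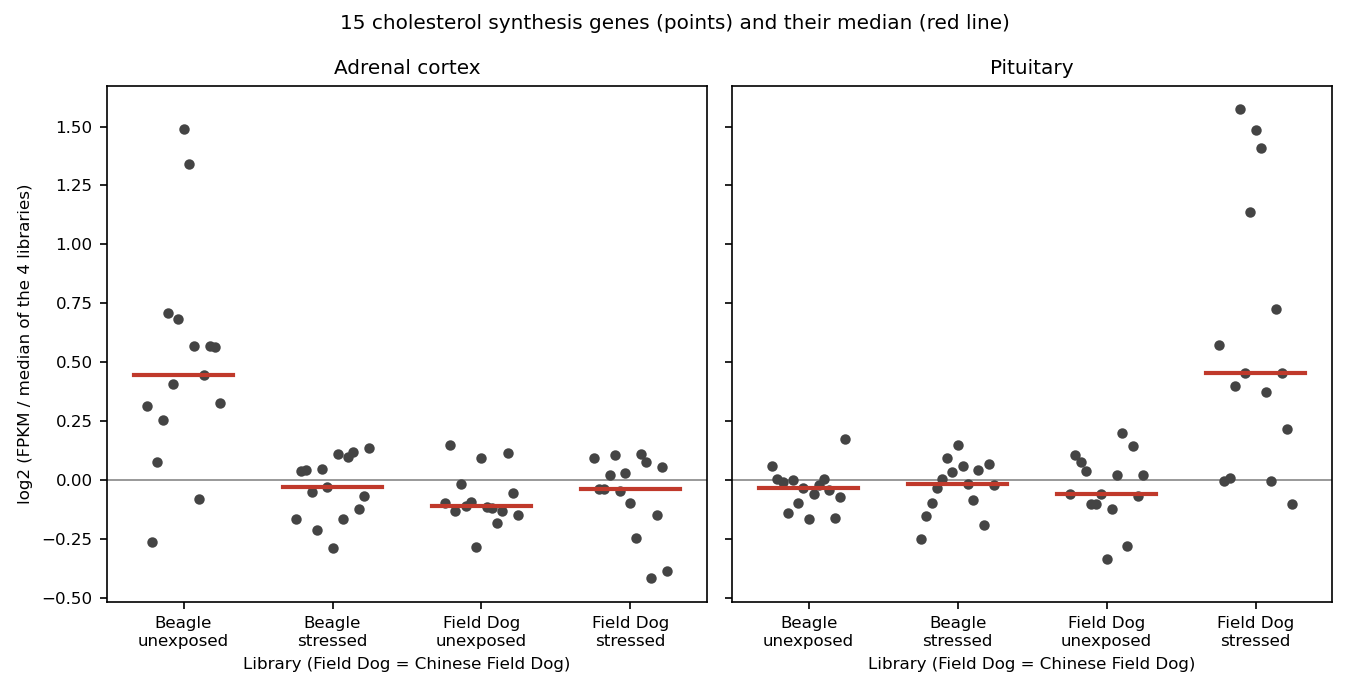
Log2 of each synthesis enzyme's FPKM over the median of its tissue's 4 libraries (15 points per library), with the median of the 15 as a red line. In adrenal cortex the unexposed Beagle library and in pituitary the stressed Chinese Field Dog library lie above 0 for most enzymes, and the other 6 libraries scatter around 0.

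The breed ratio in unexposed adrenal cortex shares that library, so it is not independent of the Beagle stress ratio. There, 14 of 15 synthesis enzymes were lower in the Chinese Field Dog (median log2 ratio -0.49), against 7642 of 13744 among all genes. Of the 29 genes, 3 passed 2-fold (background 4.35%). These were INSIG1 at -1.83, SQLE at -1.23 and LSS at -1.16. Between the stressed adrenals, 7 enzymes were higher and 8 lower (median log2 ratio -0.02), and 0 of 29 passed (background 3.0%). With both exposures as replicates of the breed, limma called none of the 29 in adrenal cortex (background 0.0338%). At an unadjusted p under 0.05 limma, edgeR and DESeq2 each gave 1 of the 29, for limma DHCR7 (log2 -0.45, SE 0.12, adjusted p = 0.713). The backgrounds at that p were 6.48% of all genes with limma, 7.58% with edgeR and 5.22% with DESeq2, so the share of the list lay below them.

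In pituitary the synthesis enzymes were nearly level in the Beagle pair, and most read higher in the stressed library of the Chinese Field Dog pair. In the Beagle pair 9 synthesis enzymes were higher and 6 lower in the stressed library (median log2 ratio 0.00), and 0 of 29 genes passed 2-fold (background 2.35%). In the Chinese Field Dog, 11 of 15 enzymes were higher in the stressed library (median 0.34), where 46.6% of all genes read higher (median -0.03). The 29 genes together were level, with 15 higher and 14 lower (median 0.02). Of the 29, 4 passed 2-fold, all higher. The background was 9.54% in both directions, and 1155 of 14720 genes passed in the higher direction. SQLE read 32.97 FPKM stressed and 9.33 unexposed, from 1318 and 407 reads, a log2 ratio of 1.72 (interval of the read ratio 1.66 to 1.99). IDI1 read 63.6 against 19.9 FPKM (log2 1.63, interval 1.55 to 1.80). LSS read 7.46 against 2.57 (log2 1.24, interval 1.27 to 1.81), and FDFT1 26.9 against 11.7 (log2 1.13, interval 1.09 to 1.31). IDI1 lies on chromosome 2 at 33927242 to 33930720 and FDFT1 on chromosome 25 at 26057496 to 26093582. The pseudocount places the ratio of LSS just below its read interval. NSDHL, a sterol dehydrogenase, lay just inside the limit at 0.93.

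Both Beagle pituitaries lay nearer to the unexposed than to the stressed Chinese Field Dog for these enzymes. SQLE read 10.5 and 13.0 FPKM in the unexposed and stressed Beagle pituitary, IDI1 21.4 and 21.4, LSS 2.69 and 2.92, and FDFT1 12.0 and 12.5. The stressed Chinese Field Dog pituitary was thus the highest of 4 for 11 of 15 enzymes and 15 of 29 genes (background 33.1%), and by 1.5-fold for 6 of 29 (background 11.3%). These 6 were IDI1 by 2.97-fold, LSS by 2.55-fold, SQLE by 2.53-fold, FDFT1 by 2.15-fold, NSDHL by 1.60-fold and SREBF2 by 1.56-fold.

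**Figure D4:**
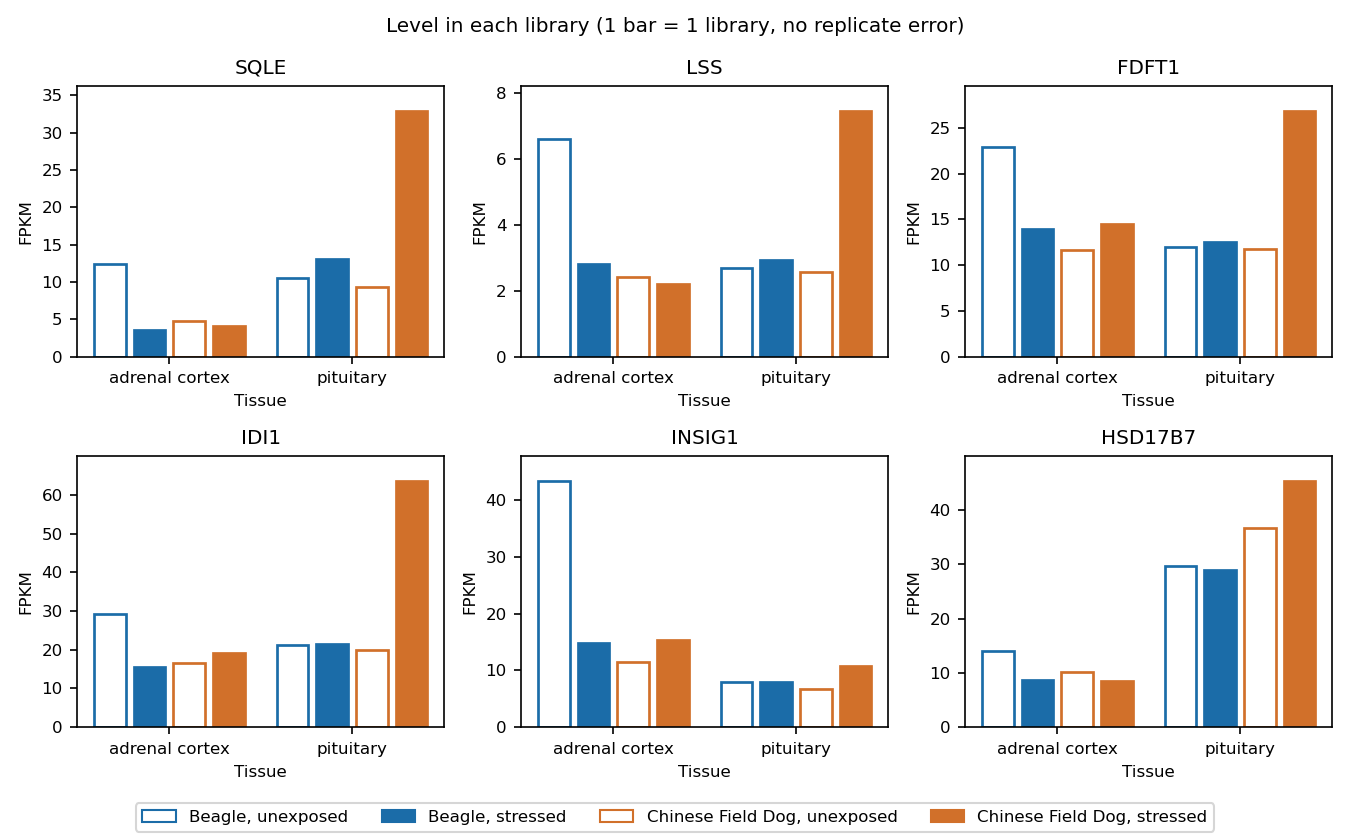
FPKM (axes from 0) of SQLE, LSS, FDFT1, IDI1, INSIG1 and HSD17B7 in the 8 libraries, open bars unexposed and filled bars stressed, blue Beagle and orange Chinese Field Dog, with 1 library per bar and no replicate error. SQLE, LSS and FDFT1 peak in the unexposed Beagle within adrenal cortex and in the stressed Chinese Field Dog within pituitary, whereas HSD17B7 is higher in all pituitaries than in any adrenal cortex.

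The other sub-groups were mixed in that pituitary. SREBF2 read 27.5 FPKM against 16.6 to 17.7 in the other 3 pituitaries, INSIG1 10.7 against 6.77 to 7.97 and STARD4 5.24 against 3.70 to 3.87. The 4 efflux and LXR genes were all lower in the stressed than in the unexposed Chinese Field Dog pituitary (median log2 ratio -0.27). Among all genes 7864 of 14720 were lower. ABCA1 read 15.4 against 23.4 FPKM. SOAT1 was the lowest of 4 there, at 12.1 FPKM, as was NPC1 at 7.52. DHCR7, MVK, PMVK and TM7SF2 were the 4 synthesis enzymes that did not read higher in that library than in its unexposed partner. The neuron, oligodendrocyte and astrocyte sums given above were high in the same library, including CAMK2A at 131 FPKM against 0.67 to 0.89 and MBP at 271 against 21.3 to 73.3. Of 10 anterior pituitary genes, 8 were lowest of 4 there, where the background was 6029 of 14722 genes. Among the 8 was POMC, the corticotropin precursor, at 10147 FPKM against 23764 to 30315. The part of these cells in the synthesis values was not tested, and exposure and tissue makeup cannot be told apart with 1 library.

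**Figure D5:**
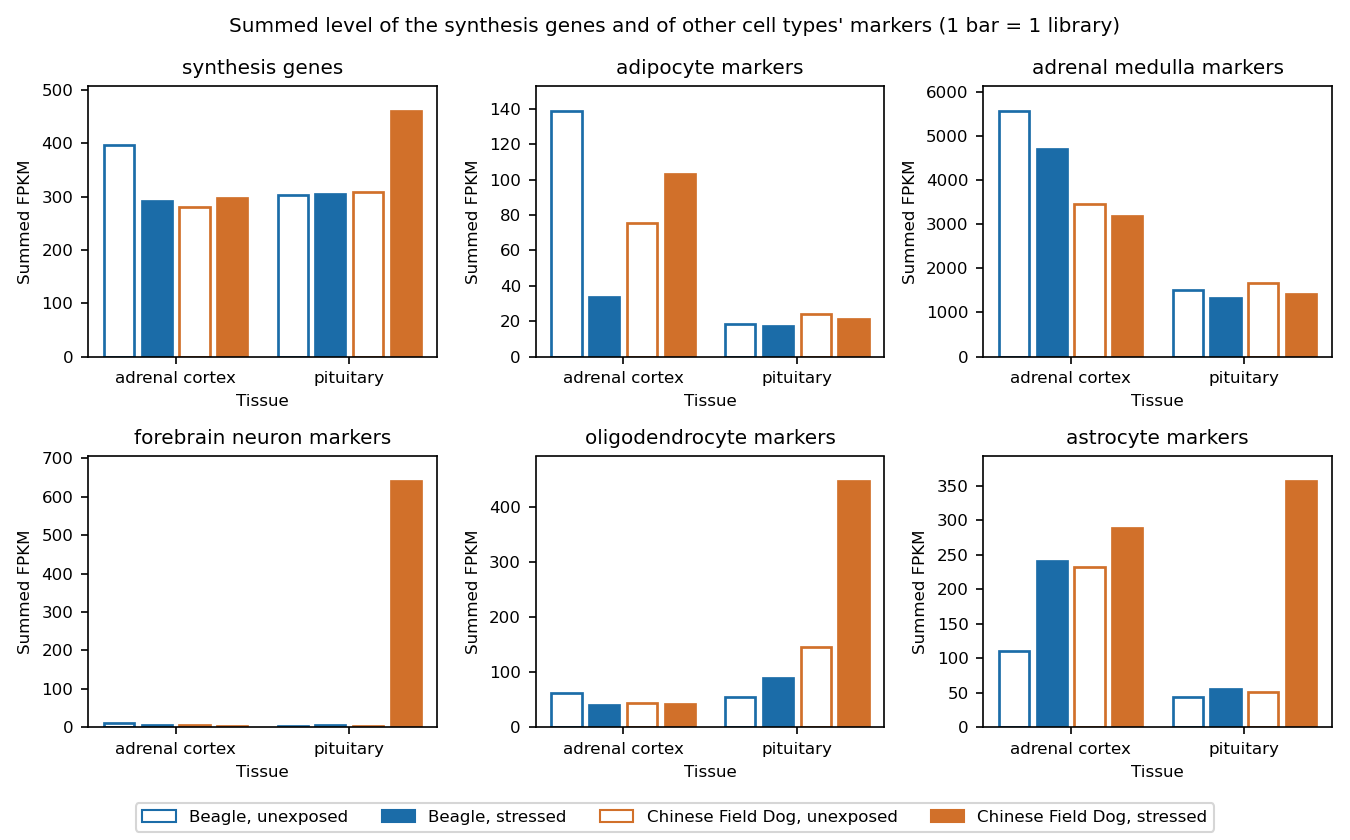
Summed FPKM (axes from 0) of the 15 synthesis enzymes and of 5 marker lists in the 8 libraries, coloured as in the plot of single genes. The synthesis sum is 397 in the unexposed Beagle adrenal cortex, which also has the highest adipocyte and medulla sums and the lowest astrocyte sum of the adrenals. It is 461 in the stressed Chinese Field Dog pituitary, which has the highest forebrain neuron, oligodendrocyte and astrocyte sums.

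Between the breeds, the unexposed pituitaries differed little in synthesis, with 7 enzymes higher and 8 lower in the Chinese Field Dog (median log2 ratio -0.01) and 0 of 29 genes past 2-fold (background 3.44%). All 4 efflux and LXR genes read higher in the Chinese Field Dog library (median 0.46), where 47.2% of all genes read higher. Among them were ABCG1 at 19.6 against 11.1 FPKM and ABCA1 at 23.4 against 16.2. In the same pair all 7 macrophage genes read higher (summed 66.2 against 32.6 FPKM), as did all 6 oligodendrocyte genes that passed the filter (the list summed to 146 against 54.0 FPKM). The part of these cells in the efflux values was not tested. Between the stressed pituitaries 14 of 15 enzymes were higher in the Chinese Field Dog (median 0.41), where 46.1% of all genes read higher. The same 4 genes as in the stress pair passed 2-fold (IDI1 1.53, SQLE 1.27, LSS 1.11 and FDFT1 1.05, background 11.1%), through the library that both ratios share. With both exposures as replicates, limma called none of the 29 for breed in pituitary (background 0.0203%), and 0 had an unadjusted p under 0.05, against 2 with edgeR and 0 with DESeq2 (background 7.93% with limma, 8.79% with edgeR and 6.59% with DESeq2).

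Genes of fatty acid synthesis that SREBP factors also drive mostly read in the same direction as the cholesterol enzymes in both pairs. In the Beagle adrenal pair all 9 listed were lower in the stressed library (median log2 ratio -0.27), where 50.3% of all genes read higher. In the Chinese Field Dog pituitary pair 7 of 9 were higher (median 0.33), against 46.6% of all genes. Markers of other cells moved in the same pairs: all 6 adipocyte genes that passed the filter were lower in the stressed Beagle adrenal cortex (median log2 ratio -2.10), and all 7 forebrain neuron, all 8 oligodendrocyte and 4 of 5 astrocyte genes were higher in the stressed Chinese Field Dog pituitary (medians 5.53, 1.51 and 4.12). In the Beagle pituitary pair only 1 forebrain neuron, 5 oligodendrocyte and 4 astrocyte genes passed the filter of a mean of 1 FPKM. Genes near 0 in the unexposed Chinese Field Dog pituitary passed only through the stressed library, so their direction was fixed by the filter. The part of all these markers in the fatty acid genes was not tested. SCD, the stearoyl-CoA desaturase, read 20.1, 26.7, 24.8 and 100.4 FPKM in the pituitaries, and FADS1, a fatty acid desaturase, 5.36, 5.92, 5.17 and 27.7. In both, the stressed Chinese Field Dog library lay several-fold above the other 3. The pump ABCG4, a relative of ABCG1, read 0.411, 0.513, 0.751 and 5.85 FPKM in the same libraries. No gene of the wider list passed in any stress or breed test with limma or edgeR. DESeq2 called FADS2 higher in pituitary for stress (background 0.398% of all genes called higher). It also called APOE, STAR, ABCG4, FADS2 and CYP11A1 higher in the Chinese Field Dog pituitary (background 1.3%). STAR and CYP11A1 were low there: the 6 adrenocortical markers that include them summed to 10.9 and 12.3 FPKM in the Beagle pituitaries. In the Chinese Field Dog pituitaries they summed to 32.9 and 23.2, against at least 11921 in adrenal cortex. The high value of ABCG4 came from the stressed library alone.

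The authors' deposited tables give a p-value for each pair of libraries. In the authors' deposited table for the unexposed adrenals of both breeds, INSIG1 had p = 0.02895 (FDR 0.772). In the authors' deposited table for the Chinese Field Dog pituitary stress pair, IDI1 had p = 0.04905 (FDR 0.923). Each was the only 1 of the 29 genes at a p of 0.05 or lower in its table, and neither passed by FDR. The share of all genes at that p is not given here. The other 6 of the authors' deposited tables held 0 of the 29 genes at a p of 0.05 or lower.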

How the data were processed

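Messenger RNA of 8 libraries was measured by RNA sequencing, and each group held 1 library. Reads were aligned with TopHat to CanFam3.1, per the submitters' processing notes; the aligner's version, the counting program and the gene annotation are not given in the sources used here. The extraction note in the labels names spleen, while the tissue labels, used here, give adrenal cortex and pituitary. The deposited FPKM values were computed by the authors from reads, gene length and depth. The deposited scaled counts are a signal per gene that the authors made by dividing reads by 1 factor per library, so whole reads were recovered: between 99.54% and 99.67% of values up to 60 reads came out whole within 0.02. Each p-value and FDR deposited per pair of libraries is the authors' own, by a test not given in the sources used here.

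Log2 ratios of FPKM + 1 were tested two-sided with limma 3.58.1 (R 4.3.3) on the 14808 genes whose FPKM averaged 1 or more, adjusted by Benjamini-Hochberg over all of them. The tissue fit used 4 ratios (3 residual degrees of freedom), and the stress and breed fits 4 ratios each (2 residual degrees of freedom). edgeR 4.0.16 and DESeq2 1.42.0 on the recovered reads were alternatives, beside another pseudocount, no filter, a read minimum, centred ratios, separate fits per tissue and leaving out each ratio. Pairs of single libraries have no test; their intervals are 95% Clopper-Pearson limits on the read ratio and, like the depth, cover counting error only. The breeds, exposures or their combinations stand in as replicates, so a p-value measures the spread between these libraries. The scripts were tested on simulated data.

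Values in every library are given for genes called in any limma test, for genes past 2-fold in any pair with at least 50 reads, and for the most and least abundant of each sub-group; at most 10 further pathway genes are named, by size of the log2 value. The genes and lists were chosen with earlier results of these data known. A row under SC4MOL, an older symbol of MSMO1, lies on another chromosome than MSMO1 in the RefSeq assembly UU_Cfam_GSD_1.0 and was not taken for it. Protein, promoter and other sequences were not used here. Some genes of the wider pathway list are not reported here.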

Additional observations from a re-analysis of the deposited data

Results flagged for a closer look

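In each tissue, the highest or lowest of the 4 libraries was set against the range of all 4: a gap to the nearest library above Dixon's 95% critical share of that range was listed. Chance lists about 1 in 20 groups. Over all genes, 6.08% were listed in adrenal cortex and 10.8% in pituitary, against 1 and 7 of the 29 cholesterol genes. In pituitary the stressed Chinese Field Dog library stood above the other 3 for IDI1, with a gap of 0.939 of the range, FDFT1 with 0.924, CYP51A1 with 0.901 and LSS with 0.892. These are enzymes from the isoprenoid, squalene and lanosterol steps. STARD4, the sterol carrier, had a gap of 0.873 and SREBF2, the SREBP factor of cholesterol synthesis, 0.872 in the same library. SCAP, the SREBP escort, stood highest in the unexposed Chinese Field Dog pituitary with a gap of 0.882, over a range of only 23.8 to 25.8 FPKM. In adrenal cortex NR1H3, the LXR alpha receptor, was lowest in the unexposed Beagle library with a gap of 0.921.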

How the results depend on the processing

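No stress or breed call among the 29 genes appeared under any alternative run (0 in each). The number called between tissues was 13 with limma, 13 with edgeR and 15 with DESeq2, and between 10 and 14 on leaving out 1 ratio. MVD lost its call without the unexposed Beagle, the stressed Beagle or the unexposed Chinese Field Dog ratio, INSIG1 without any ratio but the unexposed Beagle one and with no filter, and NPC2 without the unexposed Chinese Field Dog ratio. Leaving out a ratio in the stress and breed fits leaves 1 ratio in that tissue, assumed to vary like the other tissue's. No paired analysis was possible because the labels carry no replicate numbers that tie libraries to a dog. The tissue ratios pair libraries by breed and exposure alone. With a pseudocount of 0.1, 3 genes instead of 2 passed 2-fold in the Beagle adrenal stress pair, and the other 7 pairs kept their counts. At 108 to 450 reads per adrenal library, SQLE and LSS have wide counting intervals.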

Other observations

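TMEM97, a sterol-responsive membrane protein of the wider list, was named after its values were seen. It read 24.03 FPKM in the unexposed and 23.4 in the stressed Beagle adrenal cortex, and 8.03 and 8.57 in those of the Chinese Field Dog, from 182, 199, 77 and 63 reads. The pituitaries read 21.9, 24.1, 24.9 and 18.3 FPKM. The breed difference in adrenal cortex was -1.41 log2 units (SE 0.19), which did not pass (limma adjusted p = 0.60).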
